A study of Homo sapiens with 9 samples.

Results

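Copper at 5 µM together with arsenic at 5 µM was set against arsenic at 5 µM alone in HuH-7 cells, a human hepatocellular carcinoma line, with 1 library on each side. All genes were members of the comparison, and 18237 of the 63677 genes counted were measured well enough to be tested. These are 2 of the 9 libraries of the study, which asks how the transcriptome of this line differs between models of liver toxicity. The untreated control and the arsenic 15 µM library are given beside the pair for reference, and the other 5 libraries were treated with acetaminophen, serum exosomes, caffeine or pairs of these. The labels give no exposure time, no chemical form of either metal and no copper treatment without arsenic, so an effect of copper by itself could not be separated from its effect in the presence of arsenic. Each condition is 1 culture of 1 tumour line.

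Arsenic binds thiol groups of proteins and glutathione, and cells exposed to it typically induce heme oxygenase, heat shock proteins and the antioxidant genes under the factor NRF2. Copper is an essential metal that enters through the transporter CTR1 (SLC31A1), is handed on by chaperones, leaves through the pumps ATP7A and ATP7B, and is buffered by glutathione and by metallothioneins, small cysteine-rich proteins. Metallothionein and zinc exporter genes are switched on by the metal-sensing factor MTF1, heat shock genes by HSF1.

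Levels are in CPM, the read count of a gene relative to the TMM-scaled size of its library, and a ratio is the level with copper over the level without. A gene is called apart when the ratio is at least 2 either way and its 95% counting interval excludes 1. With 1 library a side there is no replicate check, the intervals cover counting error alone, the amplified reads carry no tags that identify molecules, and variation between cultures is not covered. In bulk RNA of this kind, fewer cells expressing a gene and less of its RNA per cell cannot be told apart.

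The arsenic 5 µM library had the highest share of small nucleolar RNA counts of the 9 libraries. It held 3671322 counts on genes and the copper library 2638534, within a range of 658725 to 8227906 over the 9 libraries. Small nucleolar RNA (snoRNA) and small Cajal body RNA genes took 36.1% of the counts on genes in the arsenic 5 µM library, 6.40% with copper, 4.98% in the control and 3.49% at arsenic 15 µM. The acetaminophen library held 11.7% and the caffeine library 8.49%. Protein-coding genes took 48.7% and 83.0% of the counts without and with copper. Across 10867 genes, the log2 level relative to the mean of the 9 libraries decreased as gene GC content increased in the arsenic 5 µM library (Pearson's r -0.49) and increased with it in the copper library (r 0.44). The decrease was stronger in the acetaminophen library (r -0.61), and the r of the copper library was the highest of the 9. All 12 hepatocyte markers were detected in both libraries, with summed levels of 20380 CPM without and 14250 CPM with copper. Fibroblast markers summed to 37.5 and 58.7 CPM and endothelial markers to 1.71 and 0.372 CPM, without and with copper. Of 7 fibroblast markers 3 and 2 had no counts, and of 5 endothelial markers 3 and 4. Blood markers summed to 120.7 and 45.3 CPM, with LYZ the most abundant and 6 and 4 of 7 at 0, and bile duct markers, led by KRT19, to 176 and 373 CPM, with 0 and 1 of 5 at 0. Their part in the results was not tested.

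**Figure D1:**
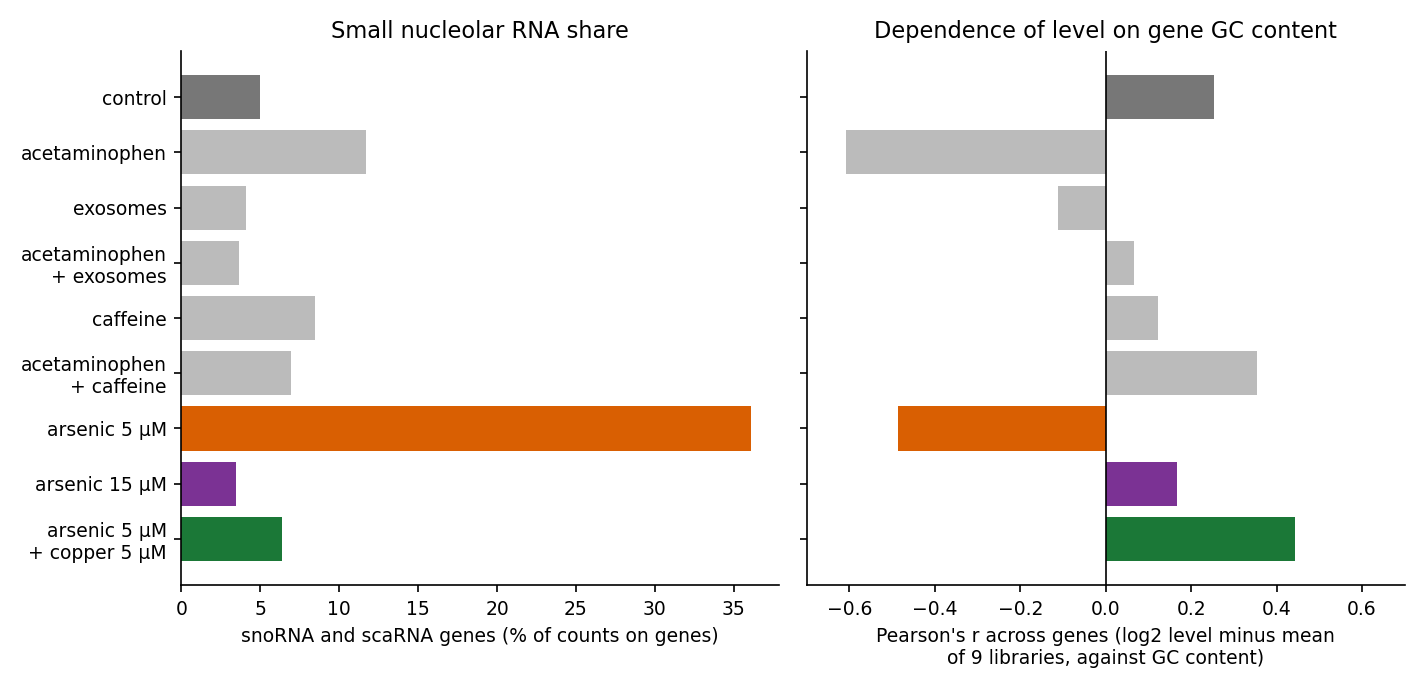
Left, percent of the counts on genes that fell on snoRNA and small Cajal body RNA genes in each of the 9 libraries; right, Pearson's r across 10867 genes between GC content and the log2 level relative to the mean of the 9 libraries. The arsenic 5 µM bar reaches 36.1% on the left, and on the right the arsenic 5 µM bar (-0.49) and the copper bar (0.44) point in opposite directions. The acetaminophen bar (-0.61) is the most negative and the copper bar the most positive.

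The log2 ratio followed gene composition. Its correlation across genes was 0.61 with GC content and -0.25 with log2 transcript length, a description over genes that share the same 2 libraries, and a smooth trend on both held 38.6% of its variance. In the quintile of genes lowest in GC content (30.2% to 40.6%) the median log2 ratio was -0.91, and in the highest quintile (57.6% to 73.9%) it was 1.27. Of the genes in the lowest quintile, 44.8% were lower with copper, and of those in the highest, 59.6% were higher. The leading genes and most lists below are therefore also given with the trend on GC content and length removed. The genes named below as higher that were under 2 times higher with it removed are BAG3, BAG6, FKBP4, HSPB1, MT1X, MT1F, CCS, COX19, ULK1, OGDH, HMOX1, FTH1, GSTP1, CEBPB, GDF15, PDIA4, SYVN1, CALR, SESN2, TP53I3, BBC3, BAK1, CYP27A1, HSD3B7, BIRC5 and PLK1. The genes named as lower that were under 2 times lower are HSPA4L, DNAJB4, DNAJC3, PTGES3, CP, GCSH, GCLM, GCLC, SLC7A11, VLDLR, PDIA3, MDM2, RRM2B, SESN1, ALB, MSMO1, SC5D, STARD4 and RPL7L1. How far the make-up of the 2 libraries enters each ratio was not tested.

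**Figure D2:**
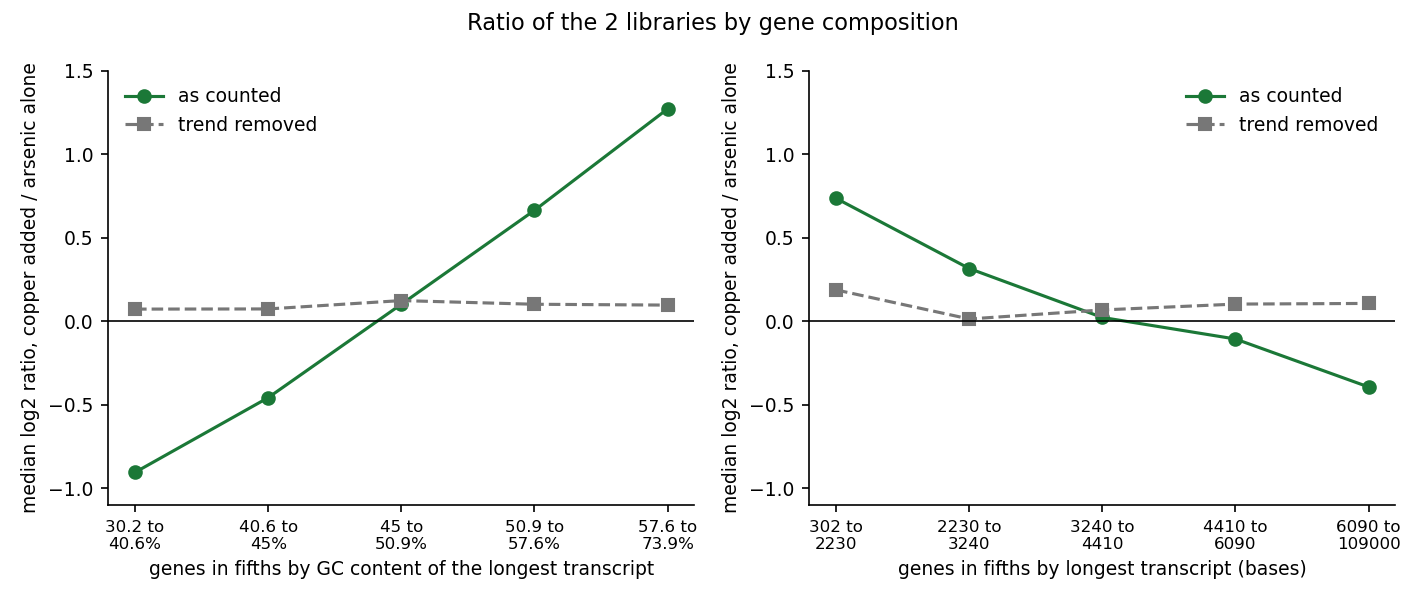
Median log2 ratio, copper added over arsenic alone, for genes in quintiles by GC content (left) and by transcript length in bases (right), as counted and with the smooth trend removed. As counted, the median goes from -0.91 to 1.27 with rising GC content and from 0.74 to -0.39 with rising length, and with the trend removed it stays between 0.01 and 0.19.

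With copper, 3013 genes were higher (16.5% of those tested) and 2503 were lower (13.7%). Scaling by total counts in place of TMM, which leaves the snoRNAs in the library size, gave 5333 higher and 912 lower and moved the median log2 ratio of all genes by 0.68. Among 13906 protein-coding genes, 2802 were higher (20.1%) and 1932 lower (13.9%). Among 4331 genes of other types, 211 were higher (4.87%) and 571 lower (13.2%). The counts of higher and lower members in the lists below are to be read against the shares of their gene type. Both apart and still at least 2 times apart with the trend removed were 1396 of 13904 protein-coding genes in the higher direction (10.0%) and 806 in the lower direction (5.8%), against 8.9% and 6.15% of all genes with a GC content and length. The median log2 ratio was -0.12 over all genes, or 0.00 with genes without counts in 1 library at their bound of 3 counts, and 0.07 over protein-coding genes, and 0.03 over all genes with the trend removed.

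Set beside the untreated control, most of these genes were apart from it in the arsenic 5 µM library and not apart from it in the copper library. Of the 3013 genes higher with copper, 1748 were lower than the control at arsenic 5 µM and 41 higher, whereas in the copper library 194 were lower than the control, 531 higher and 2288 not apart from it. Of the 2503 genes lower with copper, 1658 were above the control at arsenic 5 µM and 13 below, whereas with copper 193 were above, 242 below and 2068 not apart. These genes were chosen by the levels in both metal libraries, and both comparisons share the control, so the counts describe the members and carry no test. Over all genes tested, 16.4% were higher and 15% lower than the control at arsenic 5 µM, 9.22% and 7.11% with copper, and 16.5% and 14.4% at arsenic 15 µM. Not apart from the control with copper were 75.9% of the higher genes, 82.6% of the lower genes and 83.7% of all genes tested. At arsenic 5 µM these shares were 40.6%, 33.2% and 68.6%.

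A test across libraries could be had only by borrowing the spread from departures from additive effects among the 6 libraries without arsenic, with 2 residual degrees of freedom. By edgeR's quasi-likelihood test with Benjamini-Hochberg adjustment, 34 genes were higher (0.186% of those tested) and 21 lower (0.115%) with copper at an adjusted p under 0.05, together 0.302%, and 1949 had an unadjusted p under 0.05. The count ranged from 0 to 2557 when 1 of the other 7 libraries was left out. It was 2557 without the control, 2383 without acetaminophen, 3 without caffeine or without acetaminophen with caffeine, and 0 without exosomes or without acetaminophen with exosomes. In simulated counts of the same depth, 35 of 50 genes changed 16 times were recovered and 7 of 50 changed 8 times. At 4 times and at 2 times 1 of 50 was recovered, and 0 of 18037 unchanged genes were called. The simulation gave each gene 1 mean level and the common dispersion, without a GC trend or a snoRNA-rich library. It therefore cannot give the rate of false calls in these data. The ratios and counting intervals below are therefore the main measure, and the adjusted p is given for the genes that passed.

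In the cytosolic HSP70 family, the inducible HSPA6 was higher with copper, the constitutive HSPA8 was lower, and the inducible pair HSPA1A and HSPA1B summed to under 2 times higher. HSPA6, an HSP70 that is nearly silent without stress, had no counts in the control and stood at 12.4 CPM at arsenic 5 µM, 268 CPM with copper and 4772 CPM at arsenic 15 µM. In the other libraries without arsenic it was at 0 in acetaminophen, exosomes and acetaminophen with exosomes, at 1.06 CPM in caffeine and at 11.3 CPM in acetaminophen with caffeine. The ratio was 21.7 (95% counting interval 15.0 to 32.6), the log2 ratio 4.42 as counted and 3.37 with the trend removed, and the edgeR adjusted p 0.046. HSPA8, the constitutive HSC70, was at 2702 CPM in the control, 6710 CPM at arsenic 5 µM, 2923 CPM with copper and 3066 CPM at arsenic 15 µM, which is 2.30 times lower with copper (2.23 to 2.36). The arsenic 5 µM library is the high one for HSPA8 and the lower of the metal-exposed libraries for HSPA6. The promoters of both are shown because each carries the heat shock element that HSF1 binds, while their ratios point in opposite directions. They are the 250 bases before the RefSeq start (GRCh38.p14, HSPA6 at chr1:161524290-161524539 on the plus strand, HSPA8 at chr11:123062137-123062386 on the minus strand), with matches to the heat shock element in capitals: 3 units, alternately GAA and TTC and starting with either, with NN between units, searched on both strands.
HSPA6: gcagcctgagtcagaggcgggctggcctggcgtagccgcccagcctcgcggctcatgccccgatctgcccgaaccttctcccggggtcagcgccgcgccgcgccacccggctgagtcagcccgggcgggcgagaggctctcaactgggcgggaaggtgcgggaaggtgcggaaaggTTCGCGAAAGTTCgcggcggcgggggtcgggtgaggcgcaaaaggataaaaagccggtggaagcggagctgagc
HSPA8: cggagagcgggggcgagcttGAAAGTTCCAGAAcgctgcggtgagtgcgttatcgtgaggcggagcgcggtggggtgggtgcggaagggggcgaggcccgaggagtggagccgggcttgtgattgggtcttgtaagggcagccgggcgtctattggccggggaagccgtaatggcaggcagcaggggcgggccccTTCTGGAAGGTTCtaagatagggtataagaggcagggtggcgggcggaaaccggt
HSPA6 holds 1 match and HSPA8 holds 2, and these matches overlap none of the other motifs searched. The windows of HSPA1A, DNAJB1, HSPB1, BAG3 and HSPH1 held no match to this pattern, and 1 of 2 HSP90AA1 windows held 1. Of 35116 promoter windows of this length, 0.441% hold at least 1 match and 0.0342% hold 2 or more. A match is a description of the letters and not a site shown to be bound.

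The paired stress-inducible HSP70 genes HSPA1A and HSPA1B are near-identical copies, so the split of reads between them is uncertain. HSPA1A was at 24.2 CPM in the control, 22.6 CPM at arsenic 5 µM, 332 CPM with copper and 4132 CPM at arsenic 15 µM. HSPA1B was at 34.8, 440.1, 388 and 4219 CPM in the same order. HSPA1A alone was 14.7 times higher with copper (11.1 to 19.7), whereas HSPA1B had a log2 ratio of -0.18, a direction that turned with total-count scaling. Summed, the pair was at 59.0 CPM in the control, 463 CPM at arsenic 5 µM, 720 CPM with copper and 8351 CPM at arsenic 15 µM, a ratio of 1.56 (1.44 to 1.68). The sum is under the threshold of 2 times, so the HSPA1A value by itself does not describe the family. Of the 20 genes of the HSP70, HSP110 and exchange factor list, 7 were higher and 3 lower, with a median log2 ratio of 0.12, and 4 and 2 of them were also at least 2 times apart with the trend removed. Besides HSPA6 and HSPA1A, the higher genes were HSPBP1, an exchange factor at 8.53 and 74.0 CPM without and with copper, the anti-apoptotic cochaperone BAG3 (25.2 and 79.5 CPM), BAG6, FKBP4 and HSPA2. Besides HSPA8, the lower genes were HSPA4L and HSPA13, a microsomal HSP70 at 253 and 52.0 CPM. HSPH1, the HSP110 exchange factor, was at 86.1, 346, 219 and 1058 CPM across the control, arsenic 5 µM, copper and arsenic 15 µM and was not apart.

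In the list of small heat shock and J-domain proteins, 8 of 17 tested genes were higher and 2 lower, with a median log2 ratio of 1.01, which was 0.50 with genes without counts in 1 library at their bound and 0.42 with the trend removed. CRYAB, the small heat shock protein alpha-B crystallin, was at 0.968 CPM in the control, 1.71 CPM at arsenic 5 µM, 34.6 CPM with copper and 306 CPM at arsenic 15 µM. Its ratio was 20.3 (7.65 to 75.9; edgeR adjusted p 0.034) on 4 and 93 counts. DNAJB1, the J-domain partner of inducible HSP70, was at 168, 70.8, 480.2 and 4363 CPM in the same order, a ratio of 6.78 (5.77 to 8.02). HSPB1, the small heat shock protein HSP27, was at 170.3, 61.4, 267 and 818 CPM, and its log2 ratio of 2.12 became 0.57 with the trend removed. For these 3 genes the copper library lay above the control and far below arsenic 15 µM, and for DNAJB1 and HSPB1 the arsenic 5 µM library lay below the control. DNAJB4 and DNAJC3 were the lower members. Among 22 HSP90, chaperonin and heat shock factor genes, 8 were higher and 2 lower, with a median log2 ratio of 0.41. CDC37, which delivers kinases to HSP90, was at 148, 8.53, 119 and 173 CPM, a ratio of 13.9 (8.85 to 23.1; edgeR adjusted p 0.044), and the HSP90 activator AHSA1 was at 119, 21.8, 103 and 266 CPM. For both, arsenic 5 µM was the lowest of these 4 libraries and copper stood near the control. CCT7, a chaperonin subunit, was 1135 CPM without and 431 CPM with copper, and PTGES3, the HSP90 cochaperone p23, was 270 and 134 CPM.

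Most of the metallothionein genes tested were higher with copper. MT2A, the main metallothionein of most human tissues, was at 43.5 CPM in the control, 23.0 CPM at arsenic 5 µM, 291 CPM with copper and 553 CPM at arsenic 15 µM. Its level in the 5 other libraries ran from 0.587 CPM (caffeine) to 51.0 CPM (acetaminophen with exosomes), so the copper and arsenic 15 µM libraries were the 2 highest of 9. The ratio was 12.6 (9.57 to 17.0), the log2 ratio 3.65 as counted and 2.90 with the trend removed, and the edgeR adjusted p 0.046. MT1X was at 1.94, 19.2, 49.1 and 95.3 CPM across the control, arsenic 5 µM, copper and arsenic 15 µM, a ratio of 2.56 (1.81 to 3.67), and its log2 ratio of 1.34 became 0.60 with the trend removed. MT1E was at 39.7, 56.7, 189 and 247 CPM, and MT1G at 0.968, 4.26, 23.0 and 43.2 CPM. For each of these genes the order was arsenic 15 µM, then copper, then the control or arsenic 5 µM. MT1A had no counts at arsenic 5 µM and 17 with copper, at least 4.94-fold higher against a floor of 3 counts, and MT1F was at 21.8 and 61.7 CPM. The MT1 genes are close copies, so reads may be split between them; summed over 9 MT1 and MT2A genes the level was 127, 180, 720 and 1116 CPM, a ratio of 4.002 (3.60 to 4.46).

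The promoters of MT2A (chr16:56608334-56608583) and MT1X (chr16:56682220-56682469), both on the plus strand of GRCh38.p14, are printed as the 250 bases before the RefSeq start. Among the control, both arsenic doses and copper, each gene was highest at arsenic 15 µM and next highest with copper, as was the metallothionein sum. Arsenic 5 µM lay below the control for MT2A and above it for MT1X and the sum. Capitals mark the core of the metal response element, TGCACNC or TGCGCNC on either strand, to which MTF1 binds.
MT2A: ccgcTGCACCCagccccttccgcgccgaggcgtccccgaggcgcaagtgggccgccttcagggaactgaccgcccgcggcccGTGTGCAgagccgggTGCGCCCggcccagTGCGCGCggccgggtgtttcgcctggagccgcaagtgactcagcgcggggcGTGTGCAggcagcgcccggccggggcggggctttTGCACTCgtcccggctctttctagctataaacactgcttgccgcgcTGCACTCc
MT1X: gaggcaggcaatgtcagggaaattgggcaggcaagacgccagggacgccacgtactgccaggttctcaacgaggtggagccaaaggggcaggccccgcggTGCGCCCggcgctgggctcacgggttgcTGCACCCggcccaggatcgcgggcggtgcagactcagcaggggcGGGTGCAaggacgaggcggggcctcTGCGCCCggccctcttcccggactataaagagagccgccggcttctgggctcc
MT2A holds 7 cores and MT1X holds 4, and 0.37% of the 35116 windows hold 4 or more, while 24.8% hold at least 1. Both also hold a TATAAA match, which 10.7% of windows do. Of 24 genes looked for, 17 had a RefSeq promoter entry. Among these, the window of SLC30A1 holds 1 metal response core, as does 1 window each of HSP90AA1, DNAJB1, HSPB1, BAG3, BLVRB and JUNB.

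Outside the metallothioneins, the metal-sensing factor gene MTF1 was lower with copper and SLC30A1 had no settled direction. SLC30A1, the zinc exporter that MTF1 also controls, was at 21.3 CPM in the control, 101 CPM at arsenic 5 µM, 79.2 CPM with copper and 288 CPM at arsenic 15 µM. Its log2 ratio was -0.35 as counted and 0.71 with the trend removed, and total-count scaling turned its direction as well, so no direction is given. MTF1 itself was at 7.74, 41.8, 14.9 and 20.9 CPM in the same order, 2.81 times lower with copper. Of the 12 tested genes of the list of metallothioneins and metal-responsive genes, 6 were higher, all of them metallothioneins, and MTF1 was the 1 lower gene; the median log2 ratio was 1.37, and 0.65 with the trend removed.

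The main copper importer and both copper pumps were not apart between the pair. SLC31A1, the high-affinity copper importer CTR1, was at 46.4 CPM in the control, 81.9 CPM at arsenic 5 µM, 85.5 CPM with copper and 93.5 CPM at arsenic 15 µM, a ratio of 1.04 (0.858 to 1.27). ATP7B, the hepatocyte copper pump that is faulty in Wilson disease, was at 50.3, 43.1, 63.6 and 64.7 CPM, a ratio of 1.48 (1.15 to 1.91). ATP7A, its counterpart in most other tissues, had 9 counts without and 3 with copper, and the interval of the inverse ratio, 0.859 to 19.8, spans 1. None of the 3 was apart, and with single libraries this does not show that they were equal.

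The genes of the copper list that were apart included copper enzymes, chaperones and the transporter SLC31A2. SOD1, the copper-zinc superoxide dismutase, was at 433 CPM in the control, 34.1 CPM at arsenic 5 µM, 199.6 CPM with copper and 236 CPM at arsenic 15 µM, a ratio of 5.85 (4.62 to 7.495). CCS, the chaperone that loads copper into SOD1, was at 127, 42.6, 146 and 71.2 CPM, and its log2 ratio of 1.77 became 0.29 with the trend removed. SCO2, which delivers copper to cytochrome c oxidase, was at 29.03, 2.56, 20.1 and 21.6 CPM. Of these 4 libraries, arsenic 5 µM was the low one for all 3. In all, 9 of 22 tested genes were higher, with ATOX1, COX19, SLC31A2, AOC3, MAP2K1 and ULK1 as the others, and the plasma copper protein ceruloplasmin, CP, was lower at 154 and 48.3 CPM. The list's median log2 ratio was 0.55, and 0.33 with the trend removed. Of 12 genes of the lipoylation pathway, which copper ions target through the reductase FDX1, OGDH was higher (53.7 and 135 CPM, with a log2 ratio of 1.33, and 0.63 with the trend removed) and GCSH lower (22.6 and 9.29 CPM).

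**Figure D3:**
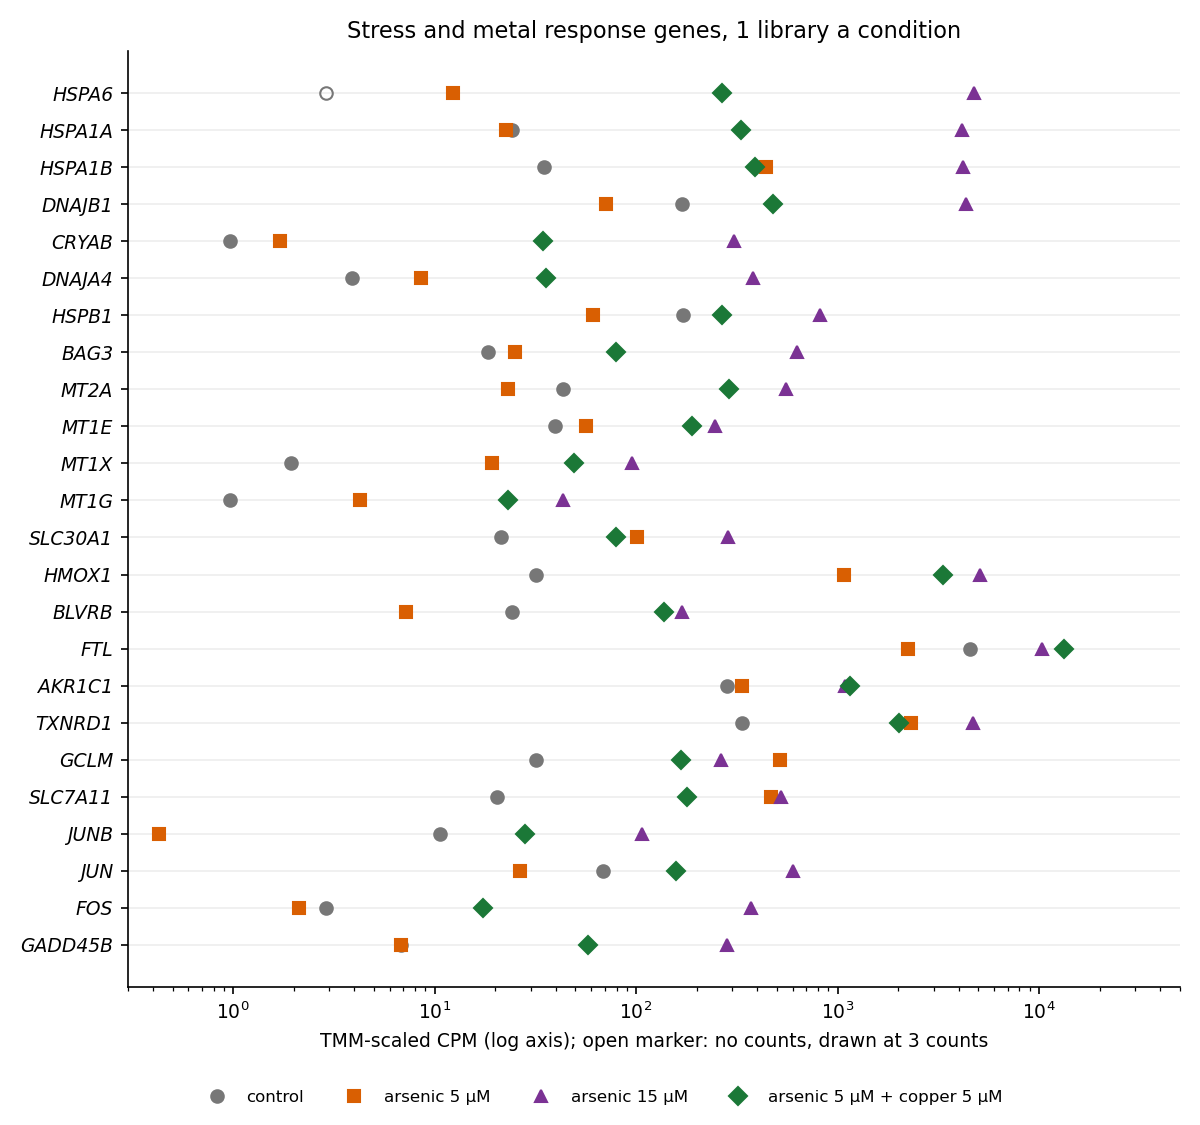
TMM-scaled CPM (log axis) of 24 stress and metal response genes in the libraries of the control, both arsenic doses and copper added to arsenic, 1 point per library, with an open marker at 3 counts where a library had no counts. Copper lies above arsenic 5 µM for genes such as HSPA6, MT2A and BLVRB, below it for GCLM and SLC7A11, and arsenic 15 µM is the highest of the 4 for most heat shock genes and metallothioneins.

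Among genes of the oxidative response, HMOX1, BLVRB and both ferritin chains were higher with copper, and SLC7A11, GCLM and GCLC were lower. HMOX1, which cleaves heme, was at 1082 CPM at arsenic 5 µM and 3335 CPM with copper, against 31.9 CPM in the control, a ratio of 3.08 (2.95 to 3.22). Its log2 ratio of 1.62 became 0.54 with the trend removed, under 2 times. BLVRB, a biliverdin reductase acting downstream of heme oxygenase, was at 24.2 CPM in the control, 7.25 CPM at arsenic 5 µM, 138 CPM with copper and 169 CPM at arsenic 15 µM, a ratio of 19.02 (11.7 to 33.0; edgeR adjusted p 0.019). FTL, the ferritin light chain, was at 4567, 2246, 13370 and 10390 CPM in the same order, a ratio of 5.95 (5.78 to 6.13), and the heavy chain FTH1 at 321, 320.3, 794 and 1045 CPM. FTL with copper was the highest of these 4 libraries. The aldo-keto reductases AKR1C1, AKR1C2 and AKR1C3 share much sequence, and their sum was at 359, 428, 1496 and 1263 CPM, a ratio of 3.49 (3.26 to 3.75). AKR1C1 has a GC content of 42.4%, and its log2 ratio was 1.79 as counted and 2.47 with the trend removed.

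SLC7A11, the cystine importer, was at 20.3 CPM in the control, 467 CPM at arsenic 5 µM, 178 CPM with copper and 527 CPM at arsenic 15 µM, which is 2.62 times lower with copper (2.35 to 2.92). SLC3A2, the other subunit of the importer, went the other way, at 232, 106, 572 and 1256 CPM, 5.41 times higher with copper (4.73 to 6.21), with a log2 ratio of 2.43, and 1.45 with the trend removed. GCLM and GCLC, the subunits of the enzyme that limits glutathione synthesis, were at 519 and 94.2 CPM at arsenic 5 µM, against 167 and 45.3 CPM with copper. For SLC7A11 the log2 ratio of -1.39 became -0.03 with the trend removed, and for GCLM -1.64 became -0.54. These were the 3 lower genes among 30 heme oxygenase and NRF2 target genes, of which 13 were higher, and no lower gene stayed 2 times apart with the trend removed, against 6 of the higher ones. The list's median log2 ratio was 0.59, and 0.39 with the trend removed. In the glutathione list, 10 of 19 genes were higher and 4 lower, with a median log2 ratio of 1.73, and 0.74 with the trend removed. GPX1, a glutathione peroxidase, was at 136, 7.25, 69.9 and 71.9 CPM across the control, arsenic 5 µM, copper and arsenic 15 µM, GPX2 at 106, 14.9, 115 and 42.1 CPM, and the transferase GSTP1 at 1428, 243, 1259 and 1245 CPM. The log2 ratio of GSTP1 was 2.37, and 0.96 with the trend removed. GPX4, which detoxifies lipid peroxides, went the other way, at 456, 1167, 395 and 338 CPM, and its log2 ratio was -1.56 as counted and -2.99 with the trend removed. Of these 4 libraries, arsenic 5 µM was the low one for GPX1, GPX2 and GSTP1 and the high one for GPX4.

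Of 28 immediate early genes tested, 13 were higher with copper and 15 were not apart. JUNB, a subunit of the AP-1 transcription factor, had 1 count at arsenic 5 µM and 76 with copper, a ratio of 66.2 (11.5 to 2650.0; edgeR adjusted p 0.017), and stood at 10.6 CPM in the control and 108 CPM at arsenic 15 µM. JUN was at 68.7 CPM in the control, 26.4 CPM at arsenic 5 µM, 158 CPM with copper and 603 CPM at arsenic 15 µM. FOS was at 2.90, 2.13, 17.5 and 373 CPM, and the nuclear receptor gene NR4A1 at 10.6, 23.5, 155 and 1301 CPM. GADD45B, a stress-inducible gene upstream of p38 and JNK, was at 6.77, 6.82, 58.0 and 284 CPM, a ratio of 8.498 (5.07 to 15.2). Each of these genes was above the control with copper and higher again at arsenic 15 µM. The list's median log2 ratio was 1.33, or 1.02 with genes without counts at their bound, and 0.80 with the trend removed, and 10 of the 13 were also at least 2 times higher with the trend removed.

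The integrated stress response, which runs through ATF4 when protein synthesis is restrained, was mixed. Of 26 genes, 14 were higher and 3 lower, the median log2 ratio being 1.19, and 0.40 with the trend removed. DDIT4, an inhibitor of mTORC1, was at 44.5 CPM in the control, 35.4 CPM at arsenic 5 µM, 257 CPM with copper and 896 CPM at arsenic 15 µM, a ratio of 7.27 (5.78 to 9.24). PPP1R15A, the phosphatase subunit GADD34 that ends the response, was at 37.7, 49.0, 221 and 2291 CPM, and the transcription factor CEBPB at 26.1, 15.4, 87.7 and 289 CPM. The log2 ratio of CEBPB was 2.50, and 0.88 with the trend removed. GDF15, a stress cytokine, was 3.13 times higher with copper (2.43 to 4.07), but its log2 ratio of 1.64 became 0.18 with the trend removed. The lower genes were the mitochondrial folate enzyme MTHFD2 (730 and 178 CPM without and with copper), the serine synthesis enzyme PSAT1 (1274 and 422 CPM) and VLDLR (128 and 58.0 CPM). MTHFD2 was at 63.9 CPM in the control, so it remained above the control with copper.

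Genes of the endoplasmic reticulum stress response did not move together. XBP1, the transcription factor of the IRE1 branch, was at 616 CPM in the control, 5298 CPM at arsenic 5 µM, 504 CPM with copper and 1191 CPM at arsenic 15 µM. It was 10.5 times lower with copper (9.94 to 11.1), and its log2 ratio was -3.39 as counted and -2.98 with the trend removed. In the 5 other libraries it lay between 272 and 640 CPM, so arsenic 5 µM was the 1 library far above the rest. HSP90B1, the chaperone GRP94, was at 525, 1044, 247 and 344 CPM, and MANF, a secreted chaperone-like factor, at 98.7, 2.13, 15.2 and 16.2 CPM. Of 21 genes, 5 were higher (MANF, CRELD2, PDIA4, SYVN1 and CALR) and 4 lower (XBP1, HSP90B1, PDIA3 and DNAJC3), with a median log2 ratio of 0.27, and 0.13 with the trend removed.

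Among the p53 targets 5 of 20 were higher and 4 lower, shares of 25% and 20%, with a median log2 ratio of -0.32 that was 0.36 with total-count scaling and -0.41 with the trend removed. CDKN1A, the cell cycle inhibitor p21, was at 9.68 CPM in the control, 10.2 CPM at arsenic 5 µM, 62.4 CPM with copper and 754 CPM at arsenic 15 µM, a ratio of 6.10 (3.96 to 9.79). BAX, SESN2, TP53I3 and BBC3 were the other higher genes, and MDM2, RRM2B, SESN1 and TIGAR were lower. BAX, a pore-forming BCL2 family member, was at 90.0, 17.5, 83.6 and 84.1 CPM, and the survival factor BCL2L1 at 212, 51.2, 201 and 148 CPM. For these 2 genes the copper library was close to the control and arsenic 5 µM lay below both. In the BCL2 family 5 of 15 genes were higher (BAX, BAD, BCL2L1, BAK1 and BBC3) and 0 lower, with a median log2 ratio of 0.81, or 0.78 with genes without counts at their bound, and 0.35 with the trend removed. For BBC3 the log2 ratio of 1.65 became -0.02.

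The protein-coding genes with the highest ratios that were also at least 2 times higher with the trend removed included genes outside the stress lists. APOE, the apolipoprotein E gene, was at 522 CPM in the control, 45.2 CPM at arsenic 5 µM, 689 CPM with copper and 452 CPM at arsenic 15 µM, a ratio of 15.2 (12.5 to 18.7). CORO1B, an actin-binding coronin, was at 207, 33.7, 456 and 435 CPM in the same order, and SLC16A3, the lactate exporter MCT4, at 137, 24.3, 299.9 and 154 CPM. FBXO2, a ubiquitin ligase subunit that recognises glycoproteins, was at 94.8, 10.2, 160.2 and 121 CPM (edgeR adjusted p 0.030), and HPCAL1, a neuronal calcium sensor family member, at 43.5, 1.71, 42.7 and 61.1 CPM (edgeR adjusted p 0.023). EGFL7, a secreted EGF-like protein, had no counts at arsenic 5 µM and 42 with copper, at least 12.2-fold higher, with 26.1 CPM in the control and 7.55 CPM at arsenic 15 µM. METRNL, a secreted meteorin-like factor, had 1 count at arsenic 5 µM and 63 with copper, and was at 4.84 CPM in the control. NDUFB7, a subunit of respiratory complex I, was at 61.0, 2.13, 48.3 and 27.0 CPM, a ratio of 22.7 (9.47 to 71.0). All genes named in this paragraph were below the control at arsenic 5 µM. With copper, APOE, CORO1B, SLC16A3, FBXO2 and METRNL were above the control, and HPCAL1, EGFL7 and NDUFB7 were below it. The acetaminophen library was also below the control for all of them. It was at 73.2 CPM for APOE, 27.45 CPM for CORO1B, 32.37 CPM for SLC16A3 and 40.8 CPM for FBXO2. There HPCAL1 was at 4.22 CPM, EGFL7 at 3.52 CPM, METRNL at 0.704 CPM and NDUFB7 at 1.41 CPM. For CORO1B and NDUFB7 the acetaminophen level was below the arsenic 5 µM level.

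Secreted hepatocyte proteins had 14 of 38 genes higher and 2 lower, with a median log2 ratio of 0.75, or 0.74 with genes without counts at their bound, and 0.48 with the trend removed, and 11 were also at least 2 times higher with the trend removed. AMBP, the precursor of alpha-1-microglobulin, was at 1724 CPM in the control, 222 CPM at arsenic 5 µM, 1971 CPM with copper and 1197 CPM at arsenic 15 µM, a ratio of 8.87 (8.11 to 9.73). APOA2, an apolipoprotein of HDL, was at 2046, 97.7, 809 and 555 CPM, and the retinol carrier RBP4 at 673, 51.2, 307 and 299.9 CPM. The lower genes were albumin, ALB, at 6809, 10860, 5024 and 3339 CPM, 2.16 times lower with copper (2.12 to 2.21), and ITIH2, at 1847 CPM without and 719.5 CPM with copper. Because ALB dominates it, the sum over the 38 genes was 1.17 times lower with copper (1.16 to 1.18) although the median was higher. Among 17 hepatocyte transcription factors 6 were higher and 0 lower, and of these CEBPA and FOXA3 alone were at least 2 times higher with the trend removed. CEBPA had 1 count at arsenic 5 µM and 32 with copper. The urea cycle and amino acid list had 6 of 18 higher and TDO2 lower, on 8 counts without and 1 with copper. NAGS, which makes the activator of the cycle, had 1 and 58 counts, and ASS1, argininosuccinate synthase, was at 44.5, 19.2, 152 and 121 CPM. ASS1 was above the control with copper and below it at arsenic 5 µM.

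Enzymes of central metabolism showed 11 of 23 gluconeogenic and glycolytic genes higher and 0 lower, with a median log2 ratio of 1.33, or 1.26 with genes without counts at their bound, and 0.79 with the trend removed. PKM, pyruvate kinase, was at 2107 CPM in the control, 452 CPM at arsenic 5 µM, 3099 CPM with copper and 1722 CPM at arsenic 15 µM, a ratio of 6.85 (6.42 to 7.31). The cholesterol list had 8 of 21 higher and 3 lower, with a median log2 ratio of 0.57, and 0.20 with the trend removed. EBP and DHCR7, enzymes of the late sterol steps, were at 491 and 327 CPM in the control, 85.7 and 113 CPM at arsenic 5 µM, 467 and 540.4 CPM with copper, and 118 and 109 CPM at arsenic 15 µM. Copper differs here from arsenic 15 µM, which stayed near arsenic 5 µM for both genes. MSMO1, SC5D and STARD4 were the lower genes. Of 18 bile acid genes, FGFR4, KLB, CYP27A1 and HSD3B7 were higher, a share of 22.2% against 20.1% of protein-coding genes. FGFR4, the receptor for the bile acid regulator FGF19, was at 373, 56.7, 369 and 206 CPM. For HSD3B7 the log2 ratio of 1.15 turned to -0.14 with the trend removed, so it has no settled direction.

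**Figure D4:**
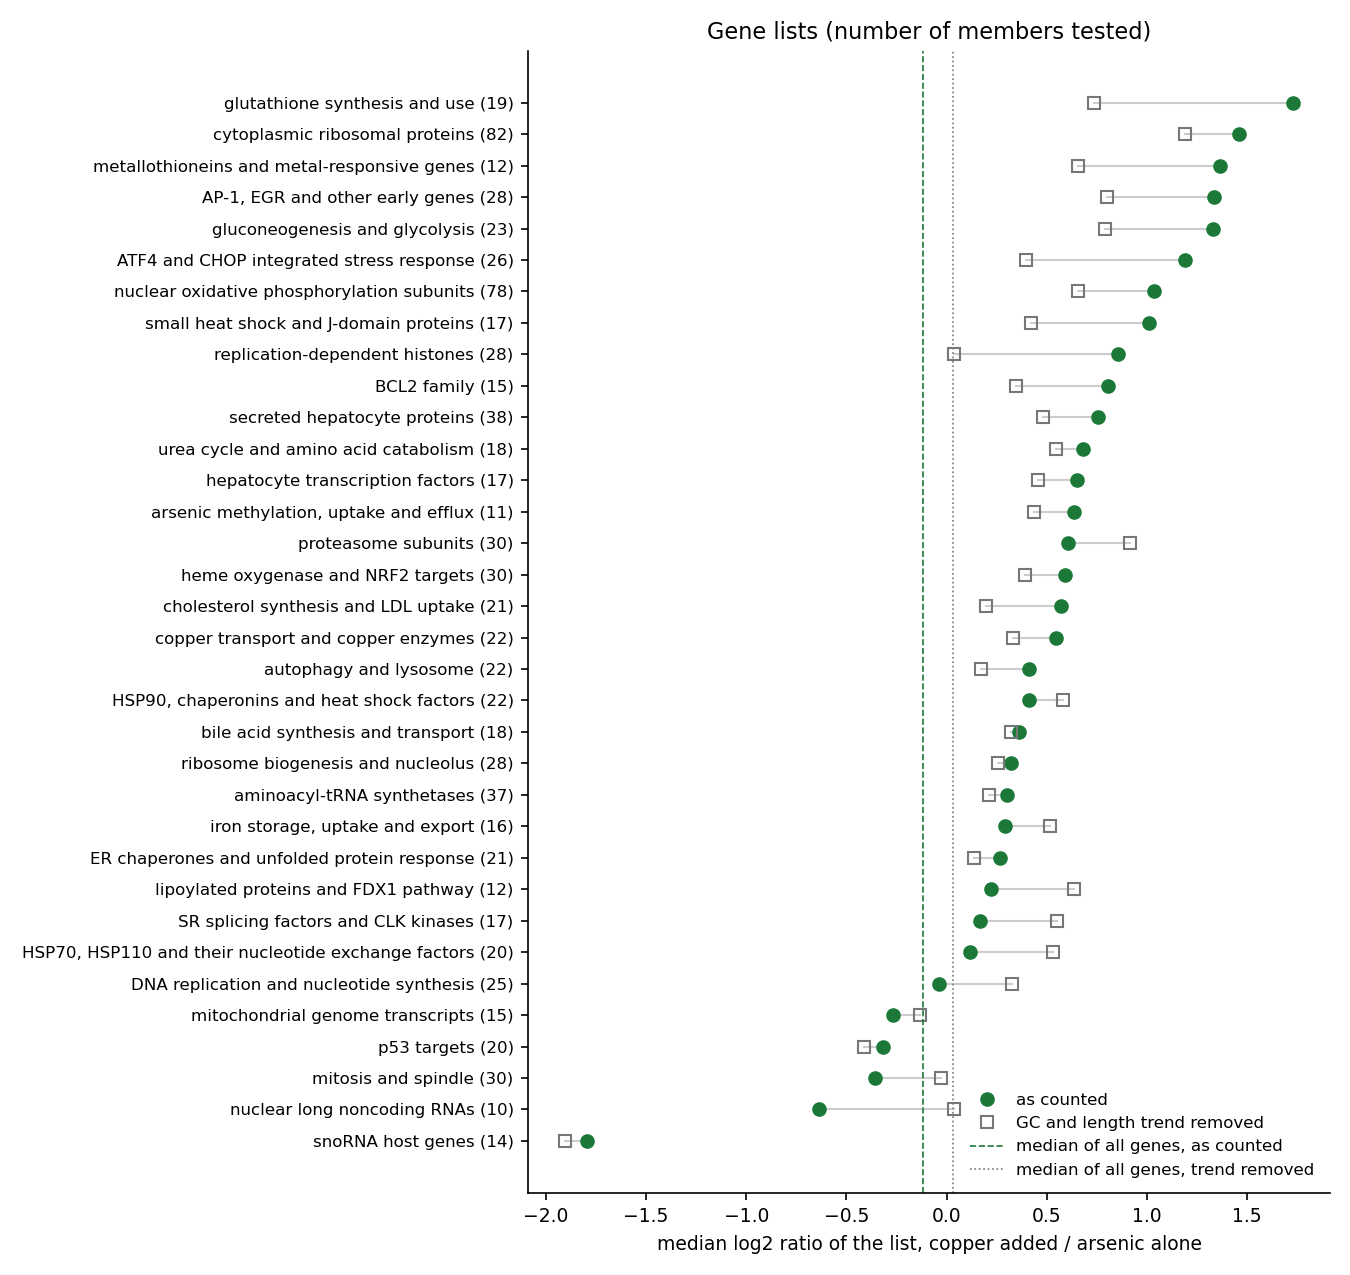
Median log2 ratio, copper added over arsenic alone, of the gene lists in which most members have a GC content and length, as counted (filled circles) and with the GC and length trend removed (open squares), with the median of all genes as vertical lines (-0.12 and 0.03). The glutathione list (1.73) and the ribosomal proteins (1.46) are highest as counted, the ribosomal proteins stay highest with the trend removed (1.19), and the snoRNA host genes lie lowest under both (-1.80 and -1.91).

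Most ribosomal protein genes were higher with copper. Of 82 cytoplasmic ribosomal protein genes, 51 were higher and 6 lower, with a median log2 ratio of 1.46, and 1.19 with the trend removed. Their summed level was 53230 CPM in the control, 18200 CPM at arsenic 5 µM, 38500 CPM with copper and 33130 CPM at arsenic 15 µM, a ratio of 2.12 (2.09 to 2.14). The acetaminophen library, in which levels also fell with GC content (r -0.61), was the only library below arsenic 5 µM, at 15250 CPM, and the remaining 4 lay between 29460 and 46580 CPM. RPS9, of the small subunit, was at 436, 24.3, 301 and 396 CPM across the control, arsenic 5 µM, copper and arsenic 15 µM, and RPLP0, of the ribosomal stalk, at 2219, 299, 2694 and 2116 CPM. Ribosomal protein genes have many processed copies, so their reads can be lost or split in counting. The 6 lower genes were RPL27A, RPL27, RPS27A, RPL36A, RPL39L and RPL7L1. RPL27A was at 1463 CPM without and 285 CPM with copper.

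Nuclear genes of oxidative phosphorylation had 40 of 78 members higher and 9 lower, with a median log2 ratio of 1.03, and 0.65 with the trend removed. COX6B1, of cytochrome c oxidase, was at 187 CPM in the control, 17.9 CPM at arsenic 5 µM, 138 CPM with copper and 76.6 CPM at arsenic 15 µM, and ATP5MC2, of the ATP synthase ring, at 160, 13.7, 106 and 55.0 CPM. Their partners encoded in the mitochondrial genome did not show this: of 15 transcripts 0 were higher and 3 lower, with a median log2 ratio of -0.27 that was 0.41 with total-count scaling. The lower ones were MT-ND4L (770.1 and 124 CPM without and with copper), MT-ATP8 (49.0 and 11.5 CPM) and the ribosomal RNA MT-RNR1 (3457 and 1277 CPM). Proteasome subunits had 9 of 30 higher and 1 lower, with a median log2 ratio of 0.61, and 0.92 with the trend removed. PSMB4, a subunit of the core particle, was at 669, 64.4, 586 and 629 CPM, a ratio of 9.10 (7.69 to 10.8). PSMC3, an ATPase of the cap, was the opposite case, at 462, 1284, 304 and 297 CPM, 4.23 times lower with copper (3.91 to 4.58). In both genes the control, copper and arsenic 15 µM were alike, and arsenic 5 µM lay below them for PSMB4 and above them for PSMC3. PSMB4 was also low in the acetaminophen library, at 79.5 CPM.

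SnoRNAs, many of which guide chemical modification of ribosomal RNA, were mostly lower with copper. Of 69 C/D box snoRNAs, which guide ribose methylation, 61 were lower and 0 higher, with a median log2 ratio of -2.88, or -2.86 with genes without counts at their bound. Of 72 H/ACA snoRNAs, which guide pseudouridylation, 67 were lower and 1, SNORA53, was higher, with a median of -2.93, or -2.90 with such genes at their bound. Of 19 small Cajal body RNAs 15 were lower and 1, SCARNA17, was higher. All 3 medians stayed under -2 with total-count scaling. SNORA53 and SCARNA17 were named after their values were seen: SNORA53 was at 81.5 CPM without and 191 CPM with copper, and SCARNA17 had 3 counts without copper, a ratio of 6.10 (1.82 to 31.9).

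The summed C/D box level was 28450 CPM in the control, 299500 CPM at arsenic 5 µM, 36690 CPM with copper and 22350 CPM at arsenic 15 µM, 8.16 times lower with copper (8.11 to 8.22). The summed H/ACA level was 16060, 255400, 24820 and 14210 CPM, 10.3 times lower (10.2 to 10.4). Arsenic 5 µM held the highest level of the 9 libraries for 44 of the 69 C/D box and 61 of the 72 H/ACA snoRNAs, and the copper library for 0 of either. The acetaminophen and caffeine libraries were also above the control, with C/D box sums of 73390 and 56180 CPM and H/ACA sums of 28800 and 24020 CPM, and held the highest level of 10 and 11 of the 69 C/D box snoRNAs. The sums with copper lay within 2 times of those of the control and arsenic 15 µM. These RNAs are mostly shorter than 300 bases, so the GC and length trend was not fitted for them.

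SNORD94 was at 20.3 CPM in the control, 2093 CPM at arsenic 5 µM, 26.4 CPM with copper and 10.4 CPM at arsenic 15 µM, 79.3 times lower with copper (62.8 to 102; edgeR adjusted p 0.00058). Its level in the 5 other libraries ran from 23.1 to 143 CPM. SNORD7 was at 32.9, 4289, 202 and 24.1 CPM, and SNORD111 at 5.81, 87.4, 3.72 and 4.67 CPM. SNORD7 was also high in the acetaminophen library, at 2814 CPM, and in caffeine, at 391 CPM, both above its level with copper. Among H/ACA snoRNAs, SNORA19 was at 44.5, 788, 34.9 and 34.2 CPM, 22.5 times lower (18.3 to 28.0; edgeR adjusted p 0.017), and SNORA7B at 286, 14630, 836 and 259 CPM, 17.5 times lower (16.8 to 18.3). The sequences shown are of snoRNAs picked among the lowest ratios of each structural class, so that all were lower follows from the choice. They range in GC content from 32.8% in SNORA19 to 56.8% in SNORA7B. They are GENCODE 29 transcripts (GRCh38), 5′ to 3′, with the C box (TGATGA) and D box (CTGA) of the C/D class and the ACA box near the 3′ end of the H/ACA class in capitals.
SNORD94: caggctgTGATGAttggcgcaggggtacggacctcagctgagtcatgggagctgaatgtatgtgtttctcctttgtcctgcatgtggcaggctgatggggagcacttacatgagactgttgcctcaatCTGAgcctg
SNORD7: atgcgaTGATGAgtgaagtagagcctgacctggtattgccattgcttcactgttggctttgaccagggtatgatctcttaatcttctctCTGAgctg
SNORD111: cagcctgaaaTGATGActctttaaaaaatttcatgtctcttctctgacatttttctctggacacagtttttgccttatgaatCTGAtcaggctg
SNORA19: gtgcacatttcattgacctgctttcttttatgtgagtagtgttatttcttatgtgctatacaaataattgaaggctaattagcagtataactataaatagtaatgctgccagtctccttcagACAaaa
SNORA7B: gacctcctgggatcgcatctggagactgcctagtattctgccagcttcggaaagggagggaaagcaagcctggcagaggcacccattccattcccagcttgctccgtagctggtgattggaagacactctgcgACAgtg
SNORD94 lies at chr2:86135870-86136006 in PTCD3, SNORD7 at chr17:35573657-35573753 in LINC02001, and SNORD111 at chr16:70538005-70538098 in SF3B3, all on the plus strand. SNORA19 lies at chr10:119060011-119060138 in EIF3A and SNORA7B at chr3:129397210-129397348 in RPL32P3, both on the minus strand.

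Most human snoRNAs are cut from introns of longer host transcripts. Most of the listed host genes were lower with copper: of 14, 10 were lower and 0 higher, with a median log2 ratio of -1.80, and -1.91 with the trend removed. SNHG1 was at 4896 CPM in the control, 30890 CPM at arsenic 5 µM, 3177 CPM with copper and 1874 CPM at arsenic 15 µM, 9.73 times lower with copper (9.51 to 9.95). It was also at 22170 CPM in acetaminophen and 19750 CPM in caffeine, and the host genes summed to 31080 and 32000 CPM there, against 11180 CPM in the control, 58980 CPM at arsenic 5 µM and 6786 CPM with copper. SNHG12 was at 679, 7517, 637 and 277 CPM, SNHG7 at 808, 8333, 827 and 510 CPM, and GAS5 at 1792, 7093, 804 and 511 CPM. The counting rule for reads that overlap a snoRNA and its host for these files is unknown here, so host counts may hold snoRNA reads. Protein-coding genes that carry a tested snoRNA did not show the pattern: of 107, 19.6% were higher and 15.0% lower with copper, with a median log2 ratio of 0.19, against 20.2% and 13.9% and a median of 0.07 for the 13671 with none.

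Of spliceosomal U RNAs and their copies, which are also short and noncoding, 7 of 152 were higher (4.61%) and 12 lower (7.89%). Among all tested genes that are not protein-coding these shares were 4.87% and 13.2%. Their median log2 ratio was -0.20, and 0.48 with total-count scaling. A gene with equal counts in both libraries, or none in either, has the value -0.20, so this median does not describe the expressed members. Their summed level was 33370 CPM in the control, 24790 CPM at arsenic 5 µM, 15830 CPM with copper and 6615 CPM at arsenic 15 µM. The sum was 1.57 times lower with copper (1.55 to 1.59). RNU6ATAC, of the minor spliceosome, was at 808 CPM in the control, 95.1 CPM at arsenic 5 µM, 484 CPM with copper and 686 CPM at arsenic 15 µM, 5.09 times higher with copper (4.41 to 5.89). RNU4-2 was at 117, 226, 46.1 and 55.0 CPM, 4.90 times lower. The gene with the smallest edgeR p was the microRNA gene MIR3609, at 8.71, 936, 9.66 and 3.24 CPM, 96.8 times lower with copper (65.9 to 149; edgeR adjusted p 3.9e-05).

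The protein-coding genes with the lowest ratios that were also at least 2 times lower with the trend removed were higher at arsenic 5 µM than in the control. PMF1, a kinetochore protein, was at 31.9 CPM in the control, 466 CPM at arsenic 5 µM, 28.6 CPM with copper and 22.3 CPM at arsenic 15 µM, 16.3 times lower with copper (12.9 to 20.8; edgeR adjusted p 0.020). TMEM87A, a Golgi membrane protein, was at 37.7, 467, 38.3 and 51.4 CPM, 12.2 times lower (9.95 to 15.1; edgeR adjusted p 0.046). TECR, the last enzyme of very long chain fatty acid elongation, was at 154, 2696, 337 and 280.1 CPM, 8.01 times lower (7.47 to 8.59). LIMD2, a LIM domain protein with a GC content of 60.0%, was at 63.9, 538, 61.7 and 66.2 CPM, and DNTTIP2, a nucleolar protein, at 60.0, 690.0, 86.2 and 201 CPM. TMEM87A was also above the control in acetaminophen, at 153 CPM. MYL6, a myosin light chain, was at 711, 2867, 472 and 514 CPM, and XRCC5, the Ku80 subunit of DNA end joining, at 557, 2843, 487 and 357 CPM. In PMF1, TMEM87A and LIMD2 the control, copper and arsenic 15 µM libraries lay within 2 times of each other. CFL2, CAPZA2, MOB1A, MRPL13, CWC22, ZNF587 and GABRG1 completed the 15 genes with XBP1, and 0 of the 15 carry an annotated snoRNA gene.

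**Figure D5:**
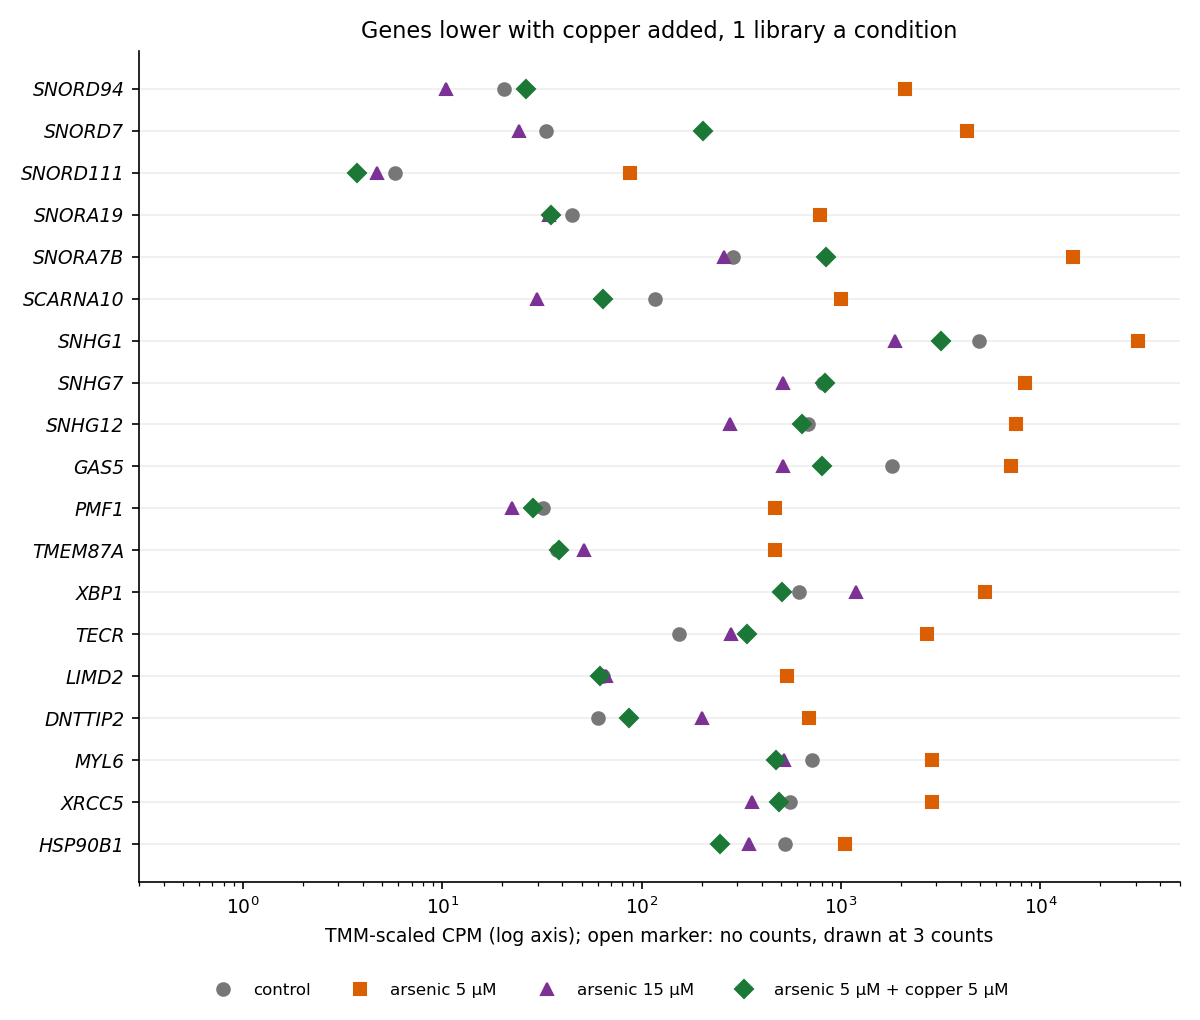
TMM-scaled CPM (log axis) of genes lower with copper in the libraries of the control, both arsenic doses and copper added to arsenic, 1 point per library. In each row the arsenic 5 µM square lies to the right of the other 3 points, which sit close together for PMF1, TMEM87A and LIMD2.

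Cell cycle genes were divided. Of 30 mitosis and spindle genes, 5 were higher (BIRC5, CCNB2, CCNB1, KIF20A and PLK1) and 9 lower, with a median log2 ratio of -0.36 that was 0.32 with total-count scaling and -0.03 with the trend removed. DLGAP5, a spindle protein, was at 33.9 CPM in the control, 205 CPM at arsenic 5 µM, 37.9 CPM with copper and 16.2 CPM at arsenic 15 µM, 5.41 times lower with copper (4.36 to 6.77). CDC25C, the phosphatase that activates CDK1, was at 24.2, 110, 28.3 and 20.1 CPM. Of 25 replication genes 9 were higher and 4 lower. The replicative helicase subunits MCM2 and MCM5 were at 346 and 315 CPM in the control, 107 and 75.1 CPM at arsenic 5 µM, 434 and 283 CPM with copper, and 151 and 95.3 CPM at arsenic 15 µM. For these 2 genes copper stood near the control while both libraries with arsenic alone were low.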

How the data were processed

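Total RNA of HuH-7 cells was depleted of ribosomal RNA and sequenced on an Ion Torrent Proton, 1 library per condition, per the labels. The authors deposited raw counts of reads per Ensembl gene. Per the submitters' processing notes, TopHat2 2.0.13, HTSeq 0.6.1 and GRCh37 were used. No source used here gives the annotation release, the strand setting or the read filters, and reads of overlapping or antisense genes may sit with either gene. HTSeq summary lines, 55.9% of reads at arsenic 5 µM and 43.5% with copper, were left out of library sizes.

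The comparison and the gene lists were chosen with earlier results of these data known. A gene entered the tests when it reached 1 CPM in 2 or more libraries, and library sizes were scaled by TMM. A log2 ratio adds 0.5 counts to each side; intervals are exact conditional binomial at 95%, and 3 counts are 1.28 CPM at arsenic 5 µM and 1.12 CPM with copper. The trend is a cubic in GC content and log2 transcript length, fitted on genes with at least 20 counts over the 2 libraries and at least 300 bases. The edgeR model had 7 coefficients (acetaminophen, exosomes, caffeine, each arsenic library), a common dispersion of 0.169 and infinite prior degrees of freedom. Named genes were the 15 highest and 15 lowest protein-coding genes by the nearest interval bound among those apart with at least 5 CPM and 2 times apart with the trend removed, the 4 highest and 4 lowest of other types, up to 4 per list, 12 stress and metal genes, and the 5 smallest edgeR p; 182 genes met the rule and the text gives most of those in the main lists. Other members of small counts were named after their values were seen. The placement against the control was also added after seeing the data. The 38 lists held 1154 tested entries, and a few members are not reported here.

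Names, types, length and GC content came from RefSeq and GENCODE 29 (GRCh38; 40044 of 63677 identifiers had a symbol, 52524 a length); no coordinates were converted. The tools were R 4.3.3, edgeR 4.0.16, DESeq2 1.42.0, Python 3.11.15, numpy 2.4.6, scipy 1.17.1 and pandas 2.3.3, checked on simulated data. Alternatives covered scaling, count filters, fold threshold, interval, depth, composition and left-out libraries.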

Additional observations from a re-analysis of the deposited data

How the results depend on the processing

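The 3013 genes higher and 2503 lower with copper became 5333 and 912 with total counts in place of TMM, 1128 and 796 at a threshold of 4 times, and 1688 and 1481 with the GC and length trend removed. DESeq2 size factors, TMM on these 2 libraries, protein-coding genes alone, other count filters, 1.5 times, a 99% interval and thinning to the same total of gene counts, which leaves the share on protein-coding genes unequal, kept both counts within 1.5 times. The 55 genes of the edgeR test became 108 with DESeq2 size factors and 95 with DESeq2 (16 higher, 79 lower, 14143 genes without an adjusted p), 0 with 1 arsenic and 1 copper term (edgeR, 428 at an unadjusted p under 0.05), and 0 to 2557 with 1 library left out; the cause was not tested. HSD3B7 turned from a log2 ratio of 1.15 to -0.14 with the trend removed. Of the named genes, 119 moved and 43 did not with the trend removed, and 139 moved with total counts. The genes not apart from the control in the copper library, 2288 of the higher and 2068 of the lower, became 2122 and 2245 with DESeq2 size factors and 4203 and 720 with total counts, an alternative chosen after seeing the data. No paired analysis was possible because the labels carry no replicate numbers and each condition has 1 library.

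Genes at 0 or 1 count in 1 library (JUNB, METRNL, NAGS, CEBPA, EGFL7, MT1A) have wide intervals. With 1 culture a condition, a library that stands apart and a treatment effect cannot be told apart.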

Other observations

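Replication-dependent histone genes, whose transcripts end without a poly(A) tail, had 12 of 28 members higher with copper and 1 lower, with a median log2 ratio of 0.85 as counted, 0.72 with genes without counts at their bound, and 0.04 with the GC and length trend removed. Their summed level was 8830 CPM in the control, 3231 CPM at arsenic 5 µM, 3823 CPM with copper and 976.9 CPM at arsenic 15 µM. H1-4, a linker histone, was at 552 CPM in the control, 105 CPM at arsenic 5 µM, 298 CPM with copper and 71.9 CPM at arsenic 15 µM. H4C16, a histone H4 gene, was the lower member, at 334, 586, 133 and 38.5 CPM. Histone genes are close copies, so reads may be split between them.

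SR proteins, which choose splice sites, and the CLK kinases that act on them had 4 of 17 members higher and 4 lower. Each share was 23.5%, against 20.1% higher and 13.9% lower among protein-coding genes. SRSF7 was at 219 CPM in the control, 21.8 CPM at arsenic 5 µM, 103 CPM with copper and 147 CPM at arsenic 15 µM, and SRSF4 at 23.2, 5.12, 24.5 and 41.4 CPM. SRSF3 was at 393, 651, 230 and 292 CPM, and CLK4 at 10.6, 27.7, 4.09 and 11.9 CPM. TRA2A and CLK2 were the other higher genes, SRSF10 and SRSF11 the other lower ones.

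Lysosome and autophagy genes had 6 of 22 members higher and 2 lower, shares of 27.3% and 9.09% against 20.1% and 13.9% of protein-coding genes. CTSD, the lysosomal protease cathepsin D, was at 138 CPM in the control, 28.6 CPM at arsenic 5 µM, 265 CPM with copper and 230 CPM at arsenic 15 µM, 9.28 times higher with copper (7.21 to 12.1). ULK1, the kinase that starts autophagy, was at 28.1, 47.8, 142 and 257 CPM, and the conjugation genes ATG12 and ATG7 were lower, at 84.4 and 141 CPM at arsenic 5 µM, against 27.9 and 49.8 CPM with copper.

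Iron genes had 5 of 16 members higher with copper (FTL, FTH1, PCBP1, TFR2 and SLC40A1) and IREB2 lower. SLC40A1, the iron exporter ferroportin, was at 75.9 CPM without and 160.2 CPM with copper, and IREB2, a regulator of ferritin and transferrin receptor mRNA, at 265 and 80.7 CPM. Of 11 genes of arsenic handling, AQP3, PNP, ABCC1 and SLC2A1 were higher and PURB lower; ABCC1, an export pump for glutathione conjugates, was at 17.4, 19.6, 59.8 and 51.1 CPM in the control, arsenic 5 µM, copper and arsenic 15 µM libraries. Of 10 nuclear long noncoding RNAs, DANCR was higher, at 59.3 and 202 CPM, and OIP5-AS1 lower, at 246 and 58.7 CPM. Of 28 ribosome biogenesis genes 8 were higher and 4 lower. FBL, the methyltransferase that works with C/D box snoRNAs, was at 194, 23.0, 87.7 and 71.2 CPM, so arsenic 5 µM was its lowest library of these 4 and the highest for the summed snoRNAs. Among the genes named here as higher or lower with copper, H1-4, SRSF3, SRSF10, SRSF11, ULK1, ATG12, FTH1, IREB2, SLC2A1 and OIP5-AS1 were under 2 times apart with the GC and length trend removed.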
